A study of Mus musculus with 6 samples.

Results

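The transcription factors described here are 8 genes known for steering CD8 T cells towards effector or tissue-resident states: Prdm1, Zfp683, Runx3, Id2, Zeb2, Hopx, Rora and Ahr. Their members are all probe sets of the deposited table annotated to any of these genes, whatever their values, and there were 24 of them among 45037 non-control probe sets. They cover 7 of the 8 genes, among 18193 genes named for the non-control probe sets. No probe set was listed for Zfp683, which encodes Hobit, so it was not analysed here. Of the 24 probe sets, 23 passed a filter on dim signal (above the 40th percentile of its array on at least 3 of 6 arrays) and were tested, beside 27766 probe sets in the whole table.

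The arrays compared GFP-positive (Eomes+) with GFP-negative (Eomes-) CD8 T cells, 3 arrays of each, from MCA-205 fibrosarcomas transplanted into male C57BL/6 mice carrying an Eomes-GFP reporter, which marks cells that express the T-box factor Eomes. All mice of both groups carried the reporter and were treated with 250 ug of an antibody to OX40 on days 12 and 16 and 200 ug of an antibody to CTLA-4 on days 12, 14 and 16. Tumours were taken on day 19. The labels do not say how many animals gave each sample, so the p-values measure the spread between these 6 arrays, and no untreated tumours were analysed here.

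As background, Blimp-1 (from Prdm1) and Hobit are related zinc finger repressors that turn off genes of lymph node homing and egress in resident T cells. RUNX3 is needed for CD8 lineage identity and for residency, with Itgae, the CD103 integrin chain, among the genes it regulates. Id2 lacks a DNA-binding region and holds E proteins away from DNA, which favours effector cells, and ZEB2 acts with T-bet in terminal effector cells. HOPX is a small homeodomain protein of effector and memory T cells, RORA is a nuclear receptor best known in innate lymphoid cells and in the clock, and AHR is a ligand-activated factor that resident T cells of barrier tissues use.

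The values are log2 signals, so a difference of 1 stands for 2-fold, and levels of different probe sets are not compared with each other. The median signal of the arrays lay between 6.35 and 6.42. Eomes was higher in the cells sorted as Eomes+, at 10.38, 9.86 and 8.38 log2 on Eomes+ arrays 1, 2 and 3 against 6.85, 6.89 and 5.42 on Eomes- arrays 1, 2 and 3, a difference of 3.15 (SE 0.63) that did not pass the test over all probe sets (limma, two-sided, Benjamini-Hochberg adjusted p = 1). Other cells' RNA varied between arrays. The summed signal of 14 T cell and CD8 identity genes was 16.07, 15.87 and 14.89 log2 in Eomes+ and 16.21, 16.21 and 15.15 in Eomes-, while 20 macrophage and monocyte genes summed to 13.80, 15.22 and 15.87 in Eomes+ and 13.51, 14.59 and 15.88 in Eomes-. The 23 tumour and fibroblast genes summed to 15.23, 16.22 and 16.79 in Eomes+ and 15.22, 15.75 and 16.89 in Eomes-. That sum includes Thy1, which is also among the T cell genes, and Vim, at 13.2 and 13.7 log2 on Eomes+ array 1. The mean log2 signal of the 23, on which single bright genes weigh less, was 9.15, 10.85 and 11.74 in Eomes+ and 9.15, 10.09 and 11.71 in Eomes-. In both groups the array numbered 3 had the lowest T cell sum and the highest macrophage and tumour sums. The 9 genes listed as CD4 and regulatory T cell markers, some of which activated CD8 cells also express, summed to 12.82, 12.58 and 12.21 in Eomes+ and 13.59, 13.53 and 12.62 in Eomes-. Fewer cells of a type and less RNA per cell cannot be told apart in such samples.

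Upstream sequences are shown for Prdm1 and Rora, the genes with the largest negative differences below, and for Runx3, whose probe sets had nearly the same mean in both groups. Each is the run of 250 bases before an annotated start in RefSeq (GRCm38.p6), 5′ to 3′ on the strand of the gene, and matches to a searched motif are in capitals. The motifs, searched on both strands, were a T-box site (GGTGTGA), a RUNX site (TGTGGT), an E-box bound by ZEB factors (CAGGTG), the core of the AHR site (GCGTG) and a ROR site (AGGTCA), and no matches of different motifs overlapped in these genes. The Prdm1 run lies at chr10:44458749-44458998 on the minus strand, the Runx3 run at chr4:135120395-135120644 on the plus strand, before the start farther from the gene's 3′ end, and the Rora run at chr9:68653536-68653785 on the plus strand.
Prdm1: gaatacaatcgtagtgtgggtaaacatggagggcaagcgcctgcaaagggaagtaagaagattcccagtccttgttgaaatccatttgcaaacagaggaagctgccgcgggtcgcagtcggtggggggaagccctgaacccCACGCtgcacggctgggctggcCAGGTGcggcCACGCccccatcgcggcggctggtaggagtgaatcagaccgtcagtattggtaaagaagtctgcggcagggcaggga
Runx3: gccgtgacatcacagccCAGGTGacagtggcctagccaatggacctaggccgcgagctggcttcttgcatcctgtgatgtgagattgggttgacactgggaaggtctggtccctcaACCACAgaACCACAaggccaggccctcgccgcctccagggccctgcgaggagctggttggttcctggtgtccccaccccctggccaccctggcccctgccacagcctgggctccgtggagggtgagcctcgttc
Rora: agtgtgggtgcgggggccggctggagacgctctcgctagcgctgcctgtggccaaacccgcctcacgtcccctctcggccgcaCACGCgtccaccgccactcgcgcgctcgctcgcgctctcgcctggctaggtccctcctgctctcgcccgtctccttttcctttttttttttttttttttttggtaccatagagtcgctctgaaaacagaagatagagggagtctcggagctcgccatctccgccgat
The Prdm1 run held 1 ZEB E-box between 2 reverse-strand AHR cores, the Runx3 run 1 ZEB E-box and 2 reverse-strand RUNX sites at 134 and 126 bases before the start, and the Rora run 1 AHR core. The run before the other annotated Runx3 start, not shown, held 0 matches to any of the motifs. Over 32851 such runs in the table, 28.2% held an AHR core, 17.2% a ZEB E-box, 14% a RUNX site, 14% a ROR site and 3.33% a T-box site. No run of the member genes with an entry (Prdm1, Runx3, Id2, Zeb2, Hopx and Rora) held the T-box letters, and a match is a description of the letters only.

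**Figure D1:**
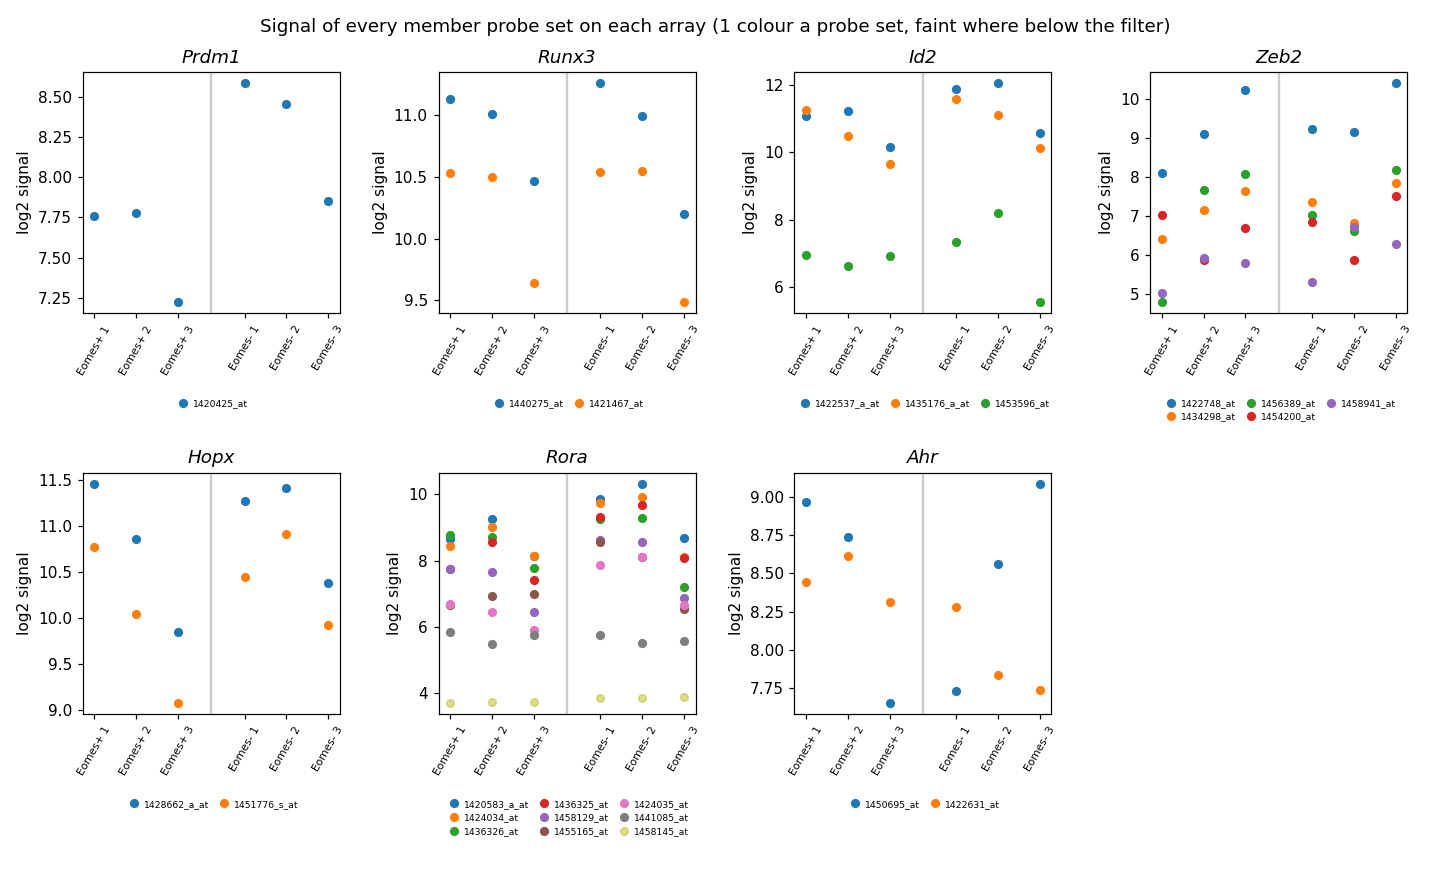
Log2 signal (vertical axis) of all 24 member probe sets on each array, 1 panel a gene, with Eomes+ arrays left of Eomes- arrays and 1 colour a probe set. Prdm1 was lower on all 3 Eomes+ arrays than on any Eomes- array, whereas the Runx3 points of both groups lie at like heights.

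Most member probe sets had a lower mean in Eomes+ cells, and none passed the test. Of 23 tested, 19 were lower (82.6%) and 4 higher, against 53.4% lower over all tested probe sets, and the median difference was -0.45 log2 against -0.02 over all. These 19 are not separate genes, as Rora gave 7 of them, Zeb2 5 and Id2 3. By the brightest probe set of each gene 6 of 7 were lower, Ahr by only -0.01, against 52.6% of all genes. Called at an adjusted p under 0.05 were 0 of 23, where 0% of all 27766 probe sets were called, with 1 member at an unadjusted p under 0.05 against 3.37% of all. The groups did not overlap for 2 of 23 members, 1 lower (5.14% of all were apart and lower) and 1 higher (2.92% of all), against 8.06% of all in either direction, so that count lies near the background. A difference below -0.5 log2, a limit chosen after the values were seen, was found for 9 of 23 (39.1%) against 8.76% of all; 6 of these 9 are probe sets of the single gene Rora. The T cell identity sum above was also lower in Eomes+ on average. The CD4 and regulatory T cell markers were lower in 8 of 9, with a median of -0.77 log2 and 0 passing the test. Their defining genes Cd4 and Foxp3, named after their values were seen, were above the filter level on all arrays. They differed by -0.24 (SE 0.28) and -0.34 (SE 0.28), with groups overlapping but Eomes+ lower at each array number. Other genes of the list differed by more, among them Cd40lg (-1.70, SE 0.46) and Capg (-0.77, SE 0.17), the latter with groups apart. For Cd40lg every Eomes+ array was below the filter level and every Eomes- array above it. It passed the filter only through Eomes-, so the separation of its groups was fixed by the filter and is not a result. Ikzf2 was higher, by 0.32 (SE 0.79). The part of both lists in the members' lower means was not tested. With the mean of macrophage and tumour markers as a covariate, which holds no gene of these lists but Thy1, the members' median was -0.37 log2.

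**Figure D2:**
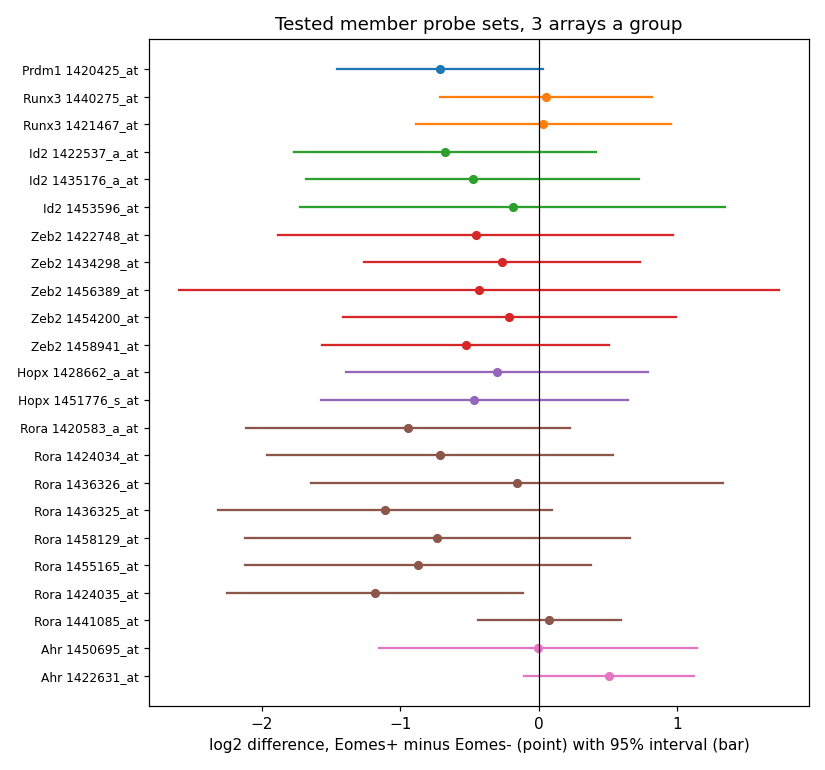
Difference in log2 signal, Eomes+ minus Eomes- (horizontal axis), of the 23 tested member probe sets (points) with 95% intervals of the limma fit (bars), 1 colour a gene. Only Rora 1424035_at, from -2.25 to -0.12, has an interval that leaves out 0.

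Prdm1, the gene of Blimp-1, was 1.64-fold lower in Eomes+ cells. Its probe set 1420425_at read 7.76, 7.78 and 7.22 log2 on the Eomes+ arrays against 8.59, 8.46 and 7.85 on the Eomes- arrays. Every Eomes+ array lay below every Eomes- array, although Eomes+ array 2 and Eomes- array 3 were close. In both groups the array numbered 3 was the lowest, as the T cell identity sum was. The difference was -0.71 log2 (SE 0.31, 95% interval -1.46 to 0.03), with means of 7.59 ± 0.32 and 8.30 ± 0.39 (SD, n = 3 each), and limma gave an unadjusted p of 0.0578 and an adjusted p of 1. It was negative in all 19 alternatives, from -0.94 without Eomes- replicate 3 to -0.53 without Eomes+ replicate 3. Prdm1 is also a gene of plasma cells. Of 10 measured B and plasma cell genes, Jchain, Mzb1, Tnfrsf17 and Ms4a1 lay below the filter. The summed signal of all 10 was 10.98, 11.37 and 11.10 log2 in Eomes+ against 10.69, 10.71 and 11.15 in Eomes-. Of the 6 tested, 2 were lower in Eomes+ and 4 higher. Xbp1 differed by -0.52 (SE 0.23) with groups apart, in the direction of Prdm1. The part of these genes' cells in the Prdm1 difference was not tested. Regulatory T cells also express Prdm1, and the CD4 and regulatory T cell sum given above was lower in Eomes+ at each array number, as Prdm1 was; its part in the Prdm1 difference was not tested.

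The 12 genes fixed around Blimp-1 and Hobit include targets they repress and factors that oppose them, and 9 were tested, of which 3 were lower, 6 higher and 0 passed the test in either direction (0% called among the brightest probe sets of 12571 genes, of which 7.71% had groups apart). S1pr1, the receptor for egress from tissue, read 9.74, 9.41 and 8.63 log2 in Eomes+ against 7.98, 8.10 and 8.21 in Eomes-, a difference of 1.17 (SE 0.33, adjusted p = 1), and these groups were apart. Klf2, which drives S1pr1, differed by 0.62 (SE 0.34), Bach2, a repressor of effector genes, by 0.18 (SE 0.56), and Bcl6, the factor that opposes Blimp-1, by -0.15 (SE 0.33), with its other tested probe set in the opposite direction. Irf4, a factor of T cell receptor signals that acts upstream of Prdm1, differed by -1.78 (SE 0.57) and did not overlap. Il2, a cytokine gene Blimp-1 represses, differed by -2.12 (SE 0.88), and 1 of its 3 Eomes+ arrays was below the filter level. Without Eomes- replicate 2 it differed by -1.17 and without Eomes- replicate 1 by -2.75.

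Runx3 had nearly the same mean in the 2 groups. The probe set 1440275_at read 11.13, 11.01 and 10.47 log2 in Eomes+ against 11.26, 11.00 and 10.20 in Eomes-, and 1421467_at read 10.53, 10.50 and 9.64 against 10.54, 10.55 and 9.48. On both, the array numbered 3 was the lowest of its group, as the T cell identity sum was. The differences were 0.05 (SE 0.32, 95% interval -0.72 to 0.81) and 0.03 (SE 0.39, -0.89 to 0.95), so differences of up to about 0.8 to 0.9 log2 in either direction lie within the intervals. Neither passed the test (adjusted p = 1 for both), and that does not show equal levels.

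Of 9 genes around RUNX3 that were fixed as partners and targets, 8 were tested, 6 were lower, 2 higher and 0 passed. Cbfb, the shared subunit that RUNX proteins need, differed by 0.02 log2 (SE 0.17), and Runx1, the family member of early T cells, by -0.23 (SE 0.68). Itgae read 7.97, 7.19 and 8.16 in Eomes+ against 10.58, 10.38 and 9.63 in Eomes- and differed by -2.42 (SE 0.38, adjusted p = 1), with groups apart. Cd8a differed by -0.58 (SE 0.36) and Zbtb7b, the CD4 lineage factor ThPOK, by -0.28 (SE 0.32). A wide gap in Itgae stood beside a Runx3 difference near 0, with wide intervals, on the same arrays. A link between them was not tested.

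Hopx was lower by less than the spread of its arrays. The probe set 1428662_a_at read 11.46, 10.86 and 9.85 log2 in Eomes+ against 11.27, 11.41 and 10.38 in Eomes-, a difference of -0.30 (SE 0.46). The probe set 1451776_s_at, of a kind that can also detect other transcripts, read 10.77, 10.04 and 9.08 against 10.44, 10.91 and 9.93, a difference of -0.47 (SE 0.46). The groups overlapped on both, with Eomes+ array 3 the lowest of the 6, and neither passed (adjusted p = 1). Without Eomes+ replicate 3 these differences were 0.14 and -0.02.

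Id2 had a lower mean in Eomes+ on all 3 of its probe sets. The probe set 1422537_a_at read 11.07, 11.22 and 10.15 log2 in Eomes+ against 11.85, 12.05 and 10.57 in Eomes-, a difference of -0.68 (SE 0.46, 1.60-fold lower). The probe set 1435176_a_at read 11.25, 10.48 and 9.64 against 11.57, 11.11 and 10.12, a difference of -0.48 (SE 0.50). On both, arrays numbered 3 were the lowest of their group, and the groups overlapped, with Eomes- array 3 below at least 1 Eomes+ array. The dim probe set 1453596_at read 6.97, 6.62 and 6.93 against 7.33, 8.20 and 5.56, a difference of -0.19 (SE 0.64) with Eomes- array 3 below the filter level. None passed (adjusted p = 1), and without Eomes+ replicate 3 the 2 brighter sets differed by -0.35 and -0.07 log2.

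Of 9 genes listed around ID and E proteins, 7 were tested, 3 were lower, 4 higher and 0 passed. Id3, the counterpart of Id2 in memory cells, differed by 0.47 log2 (SE 0.58), opposite in sign to Id2. The E protein genes Tcf3 and Tcf12 differed by -0.28 (SE 0.25) and 0.28 (SE 0.18), the Tcf12 arrays being apart. Cxcr6, a chemokine receptor of resident cells, differed by -0.83 (SE 0.45).

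Zeb2 was lower in Eomes+ on all 5 of its probe sets by small amounts. The probe set 1422748_at read 8.12, 9.10 and 10.25 log2 in Eomes+ against 9.25, 9.15 and 10.43 in Eomes-. Arrays numbered 3 were the highest of both groups and Eomes+ array 1 the lowest of all. That difference was -0.45 (SE 0.60), and the other 4 probe sets differed by -0.21 to -0.53, with 0 of 5 passing (adjusted p = 1) and all groups overlapping. The order of the arrays on this probe set ran opposite to the T cell identity sum and with the macrophage sum at array 3. Macrophages and stromal cells also express Zeb2, and of their 20 and 23 measured markers only Cd163 and Lum lay below the filter. Their part in the Zeb2 signal was not tested, and with these markers as a covariate 1422748_at differed by -0.65. Without Eomes+ replicate 1 the difference of 1422748_at was 0.06, that of 1434298_at 0.06 and that of 1456389_at 0.60. Without Eomes+ replicate 2 that of 1454200_at was 0.12. The dim 1456389_at read 4.78 on Eomes+ array 1, below the filter level, and 1458941_at was above that level on only 2 arrays of each group.

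Of 10 fixed genes of the ZEB2 and T-bet effector programme, all 10 were tested, 4 were lower, 6 higher and 0 passed. Zeb1, the family member of memory cells, read 10.25, 10.17 and 10.38 log2 in Eomes+ against 9.75, 9.92 and 9.58 in Eomes-, a difference of 0.52 (SE 0.19) with groups apart and a sign opposite to Zeb2, although 1 of its other 2 tested probe sets ran the other way. S1pr5, an egress receptor of effector cells, differed by 1.11 (SE 0.42) with 2 of 3 Eomes- arrays below the filter level. Cx3cr1, a receptor of effector cells that macrophages also carry, differed by -0.85 (SE 0.40), and Tbx21, the T-bet gene, by -0.38 (SE 0.58).

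Rora gave the largest differences among the members. The probe set 1424035_at read 6.69, 6.46 and 5.91 log2 in Eomes+ against 7.86, 8.11 and 6.65 in Eomes-, a 2.27-fold lower mean. Eomes- array 3 lay just below Eomes+ array 1, so the groups overlapped. Its difference was -1.19 (SE 0.45, 95% interval -2.25 to -0.12; unadjusted p = 0.0344, limma adjusted p = 1). The probe set 1436325_at read 7.75, 8.57 and 7.42 against 9.31, 9.69 and 8.07 (-1.11, SE 0.51), and 1420583_a_at read 8.65, 9.26 and 8.13 against 9.86, 10.33 and 8.68 (-0.94, SE 0.49). On each of these 3, Eomes- arrays 1 and 2 were the highest of the 6. The array numbered 3 was the lowest of its group on each, as the T cell identity sum was.

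The other Rora probe sets gave smaller or no differences. The sets 1455165_at, 1458129_at and 1424034_at differed by -0.87 (SE 0.52), -0.73 (SE 0.58) and -0.71 (SE 0.52), and on 1455165_at Eomes- array 3, at 6.55, was the lowest of all while arrays 1 and 2 of that group, at 8.55 and 8.10, were the highest. The set 1436326_at differed by only -0.16 (SE 0.62), although it was designed on the same source sequence as 1436325_at, and its Eomes- arrays read 9.25, 9.28 and 7.19. The dim 1441085_at differed by 0.08 (SE 0.22) and passed the filter on 3 of 6 arrays. The 9 probe sets came from 7 source sequences, and 1458145_at was below the filter on every array and not tested. None of 8 passed. Without Eomes- replicate 3 the differences of 1424035_at, 1436325_at and 1420583_a_at were -1.63, -1.59 and -1.42, and without Eomes- replicate 2 they were -0.90, -0.77 and -0.59.

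Of 10 ROR and REV-ERB clock genes, 8 were tested, 3 were lower, 5 higher and 0 passed. Nr1d2 and Nr1d1, the REV-ERB repressors that share binding sites with ROR proteins, differed by 0.73 log2 (SE 0.38) and -0.61 (SE 0.71), the second with 1 Eomes+ array below the filter level. Arntl, a clock gene that ROR proteins activate, differed by -0.51 (SE 0.34), and the clock output gene Dbp by 0.51 (SE 0.34), with its other probe set in the opposite direction.

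Ahr differed in opposite directions on its 2 probe sets, by almost 0 on one of them. Both were designed on 1 source sequence. The probe set 1422631_at read 8.44, 8.61 and 8.31 log2 in Eomes+ against 8.28, 7.84 and 7.74 in Eomes-. The groups were apart, with the lowest Eomes+ array, array 3, only just above the highest Eomes- array, array 1. That difference was 0.50 (SE 0.26, 95% interval -0.11 to 1.12; unadjusted p = 0.0929, adjusted p = 1), and it was positive in every alternative in which it was tested. The probe set 1450695_at read 8.96, 8.74 and 7.65 against 7.73, 8.56 and 9.09, and differed by -0.01 (SE 0.48), with array 3 the lowest in Eomes+ and the highest in Eomes-.

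Of 11 AHR pathway genes 7 had a probe set with 1 symbol and 5 were tested, of which 4 were lower, 1 higher and 0 passed. The target genes Ahrr and Cyp1a1 lay below the filter. Cyp1b1, another target, differed by -0.28 log2 (SE 0.47) near the filter level, Tiparp, a feedback inhibitor induced by AHR, by -0.11 (SE 0.50) with 2 of its 3 tested probe sets running the other way, Arnt, the partner AHR binds DNA with, by -0.30 (SE 0.36), and the related Arnt2 by -0.24 (SE 0.59).

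Tissue residency genes, some of which the members are known to regulate, were lower in Eomes+ in 16 of 18 tested and higher in 2, with a median of -0.47 log2 against -0.02 over all genes, where 52.6% were lower. None passed (0 of 18). The T cell and CD8 identity genes were also mostly lower, in 12 of 14, with a median of -0.14 log2. The residency list, like the other lists here, was chosen with earlier results of these data known. Besides Itgae, Litaf, a gene of resident cell signatures, differed by -0.55 (SE 0.13, groups apart) and the chemokine receptor gene Ccr8 by -2.46 (SE 0.90, 1 Eomes+ array below the filter level), while Cd69, which keeps cells in tissue, differed by 0.29 (SE 0.75). Ccr8 differed by -1.70 without Eomes+ replicate 3 and by -3.29 without Eomes- replicate 3. Regulatory T cells also express Ccr8, and the CD4 and regulatory T cell markers (8 of 9 lower, median -0.77 log2) moved with the residency genes; their part was not tested. The Gapdh 3′ to 5′ signal ratio, a sign of RNA quality, averaged 1.74 ± 0.17 log2 in Eomes+ and 1.24 ± 0.26 log2 in Eomes- (SD, n = 3 each). A two-sided exact permutation test gave p = 0.1, which no 3 against 3 design can go below. The Actb ratio averaged 0.13 ± 0.04 log2 in Eomes+ and 0.05 ± 0.06 log2 in Eomes- (exact permutation p = 0.2). The part of RNA quality in these differences was not tested.

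**Figure D3:**
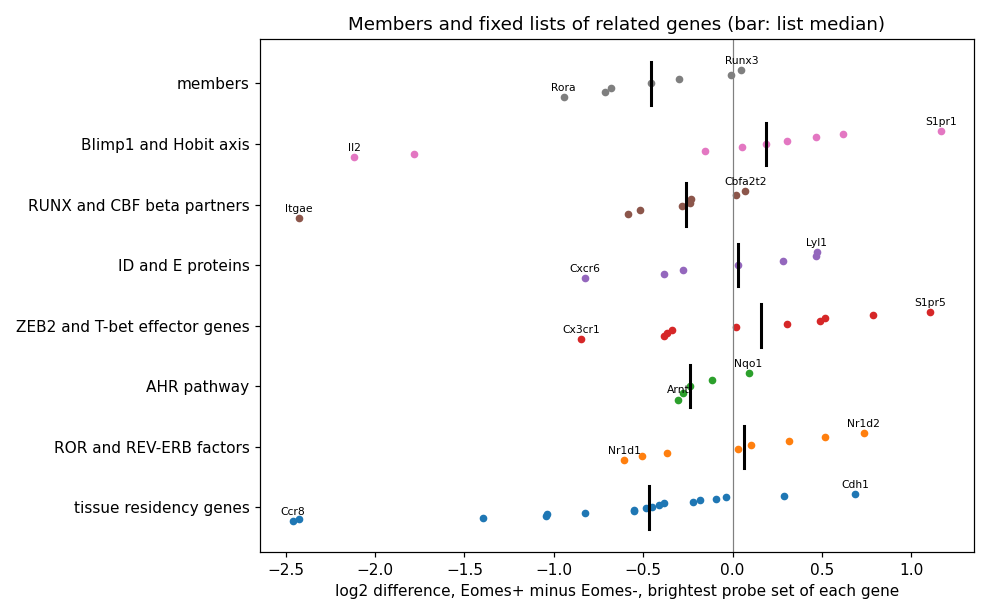
Difference in log2 signal, Eomes+ minus Eomes- (horizontal axis), of the brightest tested probe set of each gene (points) in the members and 7 lists of related genes, with list medians as bars. The members and the residency genes have medians of -0.45 and -0.47, and the other lists lie closer to 0.

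Over the 6 arrays, the brightest probe sets of Prdm1, Runx3, Hopx, Id2 and Rora shared their lowest value of each group at the arrays numbered 3. Zeb2 was highest there in both groups, and Ahr was lowest there in Eomes+ and highest in Eomes-. The genes with patterns closest to Prdm1 were Ccr8, Slamf1 and Ccdc184 (Pearson r = 0.997, 0.995 and 0.994), a description without a test, since these arrays share the group, the array number and the content of other cells' RNA. Closest to Rora were Msi2, Slco4a1 and Usp4 (each r = 0.998), and closest to Id2 were Tnfrsf18, Zyx and Cish (0.996, 0.995 and 0.993). Runx3 ran with Ptk2b, Akna and Ccdc115 (0.998, 0.995 and 0.995), Hopx with Cd1d1, Rbbp5 and Faim (0.997, 0.996 and 0.995), Zeb2 with Ptprs, Slc5a3 and Psmd7 (0.998, 0.995 and 0.994), and Ahr with 3110021A11Rik, Ulbp1 and Fkbpl (0.983, 0.974 and 0.973).

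**Figure D4:**
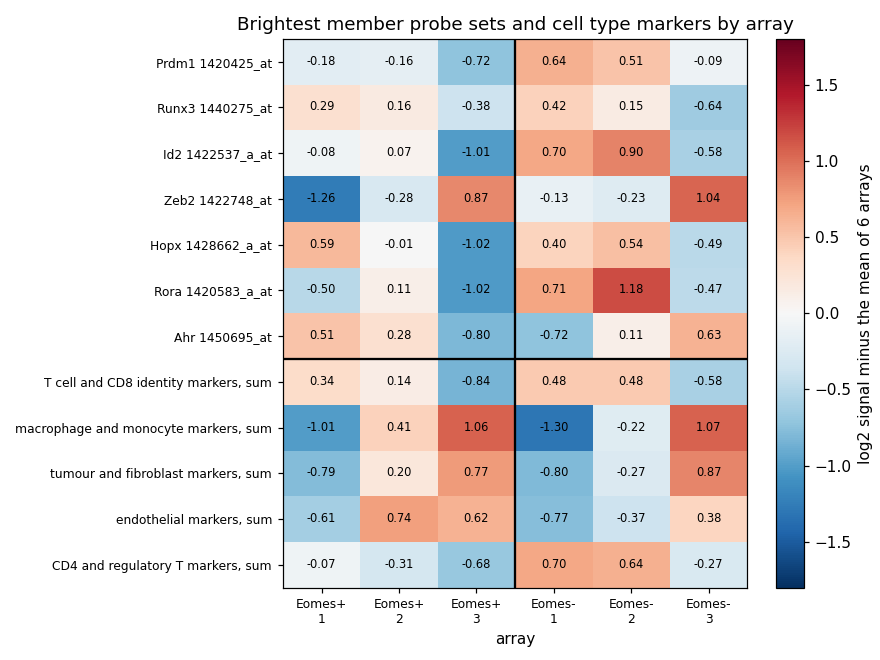
Log2 signal minus the mean of the 6 arrays (colour and number) for the brightest probe set of each member and for summed cell type markers, by array. Prdm1, Runx3, Hopx, Id2, Rora and the T cell sum are the lowest of each group at the arrays numbered 3. Zeb2 and the macrophage and tumour sums are highest there in both groups.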

How the data were processed

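RNA of 6 samples, grouped by their titles, was measured on microarrays. The authors deposited log2 signals of 45101 probe sets. The submitters' processing notes list MAS5 and Transcriptome Analysis Console with no role for either. How signals were summarised and normalized is not given in those notes or labels, and the log2 scale was read from the values (1.68 to 14.95). Symbols came from the platform annotation, updated through a RefSeq table (GRCm38.p6).

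Control probe sets (64) were left out. Probe sets above the 40th percentile of their array on at least 3 arrays (27766) were fitted with limma 3.58.1 in R 4.3.3 (lmFit, eBayes with trend). Two-sided p-values were adjusted over all of them by Benjamini and Hochberg's method, and lists used the brightest probe set of each of 12571 genes, with no test of the list. The fit was tested on simulated data with independent noise on each array. Some of the real arrays deviated together, so that test does not measure the error rate here. Named were all member probe sets, Eomes, the 3 list genes of smallest p, a fixed set of related genes whatever their values, and the 3 genes closest in pattern. The members and lists were chosen with earlier results of these data known. Replicate numbers were not a block, as no label ties them to an experiment. Alternatives were a replicate block, other normalization, filters, pseudocount, variance model, array weights, a covariate and left-out arrays. The number of arrays limits the precision.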

Additional observations from a re-analysis of the deposited data

How the results depend on the processing

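The count of 0 called probe sets among 27766 (936 at an unadjusted p under 0.05, 1 of them a member) stayed at 0 in every alternative except array weights, which called 74, and 0 member probe sets were called in any. Member probe sets kept their direction and stayed uncalled in 378 alternative values and turned sign in 37. Other named genes did so in 554 and 27, and 3 newly passed, all with array weights (limma, Eomes, Itgae and Litaf, adjusted p = 0.0446, 0.0352 and 0.0457). With a replicate block limma called 0 probe sets, and 2748 reached an unadjusted 0.05, 8 of them members. In that fit Id2 1422537_a_at was at -0.68 log2 (limma adjusted p = 0.193) and Prdm1 at -0.71 (limma adjusted p = 0.393). Same-numbered arrays deviated together at correlations of 0.665, 0.095 and 0.691. Not every array correlated best with its own number, as Eomes- replicate 2 did better with Eomes+ replicate 1 (0.372). The members' median ranged from -0.72 log2 without Eomes- replicate 3 to -0.32 without Eomes+ replicate 3. Without Eomes- replicate 3, 9 members had an unadjusted p under 0.05, where 1599 of all 27766 probe sets did. With array weights 12 members did, beside 6270 of all. Without Eomes+ replicate 3 it was 0 members beside 1095 of all, and without Eomes- replicate 2 it was 0 beside 480. Signal near background limits the dim probe sets.

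Some log2 differences turned sign, and the cause was not tested. Leaving out each array in turn gave, for members, Ahr 1450695_at -0.37 to 0.39, Hopx 1428662_a_at -0.67 to 0.14, Id2 1453596_at -0.93 to 0.39, Rora 1436326_at -0.85 to 0.20, Runx3 1421467_at -0.32 to 0.32, Runx3 1440275_at -0.26 to 0.27, Zeb2 1422748_at -1.0 to 0.06, Zeb2 1434298_at -0.55 to 0.06, Zeb2 1454200_at -0.65 to 0.17 and Zeb2 1456389_at -1.05 to 0.60. For related genes it gave Arnt -0.58 to 0.02, Arnt2 -0.83 to 0.32, Bach2 -0.30 to 0.69, Bcl6 -0.41 to 0.04, Cbfb -0.13 to 0.13, Cd69 -0.38 to 0.90, Cyp1b1 -0.68 to 0.05, Nr1d1 -1.09 to 0.08, Runx1 -0.73 to 0.44, Tbx21 -0.92 to 0.09 and Tiparp -0.41 to 0.41. With array weights the values were Runx3 1440275_at -0.04, Runx3 1421467_at -0.12, Zeb2 1434298_at 0.20, Zeb2 1456389_at 0.61, Zeb2 1454200_at 0.10, Ahr 1450695_at 0.14, Runx1 0.38, Cbfb -0.11, Tiparp 0.50 and Cd69 -0.05. Without both arrays of number 3 the values were Runx3 1440275_at -0.06, Runx3 1421467_at -0.03, Zeb2 1454200_at 0.10, Ahr 1450695_at 0.70, Cbfb -0.10 and Tiparp 0.30. Without both arrays of number 2 the values were Id2 1453596_at 0.50, Rora 1436326_at 0.05 and Bcl6 0.22. Without both arrays of number 1 the values were Zeb2 1434298_at 0.07, Zeb2 1456389_at 0.47, Rora 1436326_at 0.01, Arnt2 0.07, Bach2 -0.01 and Runx1 0.18. With the covariate for other cells the value was Rora 1436326_at 0.03. With median centring the value was Ahr 1450695_at 0.00.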

Other observations

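The Rora probe set 1458145_at, below the filter on all arrays, read 3.69, 3.73 and 3.73 log2 in Eomes+ and 3.85, 3.84 and 3.88 in Eomes-, a separation of 0.14 log2 with SDs of 0.02 in both groups. The difference was not tested, as every value lay below the filter level of about 5.7. Both Ahr probe sets were designed on 1 source sequence, and on Eomes- array 3 one read 9.09 log2, the highest of its 6 values, and the other 7.74, the lowest of its 6.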
